A study of Mus musculus with 48 samples.

Results

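Airspace macrophages taken from wild-type (WT) mice 7 days after bleomycin were compared with those of naive WT mice across every gene expressed. Bleomycin is an antibiotic that breaks DNA; given into the airways it injures the alveolar wall, and it is widely used to produce lung scarring in mice. The mice were chosen by their genotype and time labels: 3 at day 7 and 3 naive, 6 of the 24 mice of the study. The WT day 7 mice were male, carried the unaltered Siglecf gene and received 2.5 units/kg bleomycin intratracheally. The WT naive mice were also male; their titles call them naive and their labels give a saline control at day 0. The study also held WT mice at days 14 and 21 and mice lacking Siglec-F (KO), a sialic acid receptor of airspace macrophages, at the same times, with 3 male mice a group. Of these, WT days 14 and 21, KO day 7 and KO naive enter later comparisons here. The macrophages came from bronchoalveolar lavage; the labels do not give how they were separated from other lavage cells, the strain, the age or the design of the Siglecf allele.

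Resident alveolar macrophages live in the airspace, clear surfactant and depend on GM-CSF and the lipid-sensing factor PPARG. When the lung is injured, monocytes enter the airspace from the blood and turn into macrophages that first keep monocyte genes and only slowly take on alveolar ones. A lavage sample after injury can therefore hold cells of both origins. In such bulk RNA, fewer cells of a type and less RNA per cell cannot be told apart.

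Gene expression was measured by mRNA sequencing, and each mouse has 1 column of read counts. The 6 WT columns held 27075102 to 47457085 counts each. Levels are given as CPM, counts scaled to a common library size but not corrected for gene length, so they compare mice and not genes. The share taken by Rn45s, a ribosomal RNA precursor, was 8.19%, 2.475% and 4.516% in WT day 7 mice 1, 2 and 3, against 5.996%, 0.7429% and 2.591% in WT naive mice 1, 2 and 3. Lyz2 and Adgre1, genes shared by most macrophages, were abundant in every mouse. Lyz2, which encodes lysozyme, had 19438, 24957 and 19958 CPM in the WT day 7 mice, against 21783, 17434 and 19301 CPM in the WT naive mice. Adgre1, which encodes F4/80, had 507, 380 and 413 CPM at day 7, against 604, 399 and 391 CPM in naive mice. Both groups overlapped for both genes, and neither gene passed the test described next. Other genes of most macrophages did. Of 9 on that list, 3 (33.3%) passed as higher and 3 (33.3%) as lower at day 7. The shares among all tested genes were 20.2% and 15.3%. With only the 2 groups fitted, 1 of the 9 was higher and 2 were lower.

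A gene was called when edgeR's quasi-likelihood test gave a Benjamini-Hochberg adjusted p under 0.05. Of 24411 genes in the table, 12634 had enough counts to be tested. Called genes made up 35.5% of them, with 20.2% (2552 genes) higher and 15.3% (1929 genes) lower in the WT day 7 mice. In 41.9% of tested genes (5291) the 3 mice of each group did not overlap, and 4048 of these were called. The median log2 fold change of all tested genes was 0.02. A gene could be called with a small change: 1804 called genes were higher by at least 1.5-fold and 1154 lower by at least as much. Large changes were mostly upward. At 16-fold or more, 568 genes were higher and 23 lower. Of the higher genes, 223 had no count in any naive mouse.

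**Figure D1:**
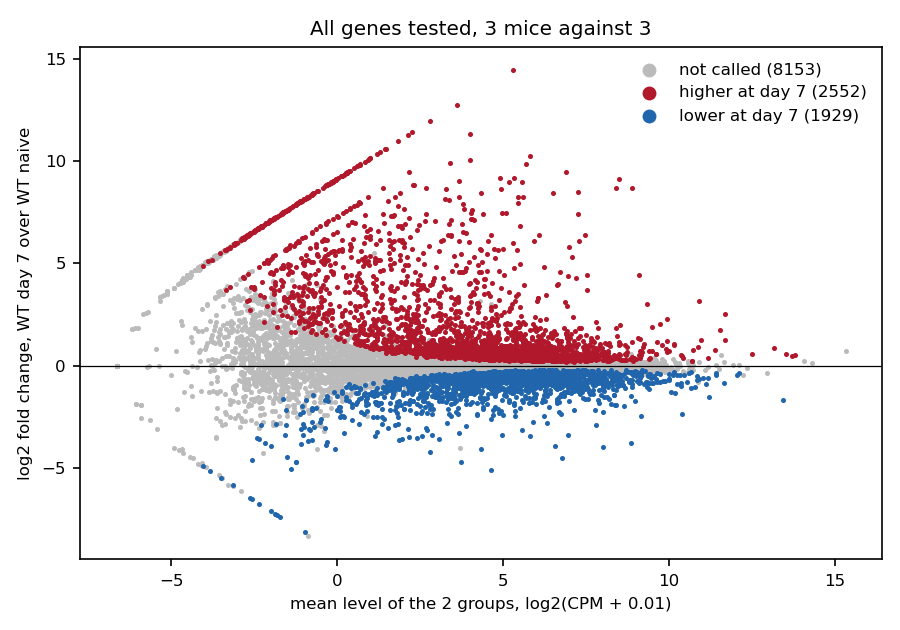
Each point is a tested gene, placed by the mean level of both groups on the x axis (log2 of CPM plus a small constant) and the log2 fold change, WT day 7 over WT naive, on the y axis. Colours mark genes called higher (2552), called lower (1929) and not called; the largest changes lie above 0 at low and middle levels.

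The 12 genes with the highest fold changes, among called genes with at least 10 CPM in the higher group and no overlap of the mice, were nearly silent in naive airspace macrophages. They include a monocyte surface protein, a pair of chemokines that attract monocytes, a lectin and matrix and clotting proteins. Ly6c2 (chromosome 15, 75108158 to 75111970, mm10), the surface marker of inflammatory monocytes in mice, had 70.8, 70.7 and 92.8 CPM in the WT day 7 mice and no count in the 3 WT naive mice. Set against a floor of 3 counts over the naive group, this is at least 2872-fold higher. Ly6a, which encodes Sca-1, had 11.6, 14.8 and 15.1 CPM at day 7 and no count in naive mice, at least 509-fold higher. Rasgrp1, an activator of RAS best known in lymphocytes, had 17.5, 29.4 and 26 CPM at day 7 and no count in naive mice, at least 894-fold higher.

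Mgl2, a lectin for galactose-type sugars also called CD301b, had 41.7, 20.9 and 34.1 CPM in the WT day 7 mice. A single naive count, in mouse 1, gave 0.0388 CPM there and 0 in the other two. The ratio of counts was 3406, with a 95% counting interval of 611 to 134567. Ccl7, a chemokine that recruits monocytes through CCR2, had 27.7, 18.1 and 51.5 CPM at day 7, against 0, 0.0881 and 0 CPM in naive mice, a ratio of 1159 (396 to 5622). Its neighbour Ccl2, the main CCR2 ligand, had 53.6, 35.9 and 92.2 CPM at day 7, against 0.117, 0.0881 and 0.099 CPM in naive mice. Its log2 fold change was 9.19 (SE 1.14, edgeR adjusted p 3.7e-06). For both chemokines the 3 day 7 mice differed among themselves and still lay far above every naive mouse.

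Thbs1, the matrix protein thrombospondin 1, had 112, 92.7 and 133 CPM at day 7, against 0.117, 0.0294 and 0.119 CPM in naive mice (log2 fold change 10.23, SE 1.21). F13a1, the catalytic subunit of clotting factor XIII, had 80.9, 68.8 and 92 CPM at day 7, against 0.194, 0.0588 and 0.158 CPM in naive mice (9.17, SE 0.62). C1qb, a chain of complement C1q, had 840, 698 and 649 CPM at day 7, against 2.56, 0.705 and 0.891 CPM in naive mice (9.13, and 9.81 without naive mouse 1). All 3 genes were clearly expressed in every injured mouse and present only in traces in naive mice. Arhgef10l, an exchange factor for small GTPases, had 19.9, 18 and 25.3 CPM at day 7 and a total of 2 counts in naive mice, a ratio of 1151 (318 to 9507). Arg1, the arginine-splitting enzyme arginase 1, varied most among these at day 7, with 360, 179 and 174 CPM, against 0.117, 0.529 and 0.317 CPM in naive mice. Under limma-voom, an alternative test, the adjusted p was 0.073 for Thbs1 and 0.12 for Arg1.

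**Figure D2:**
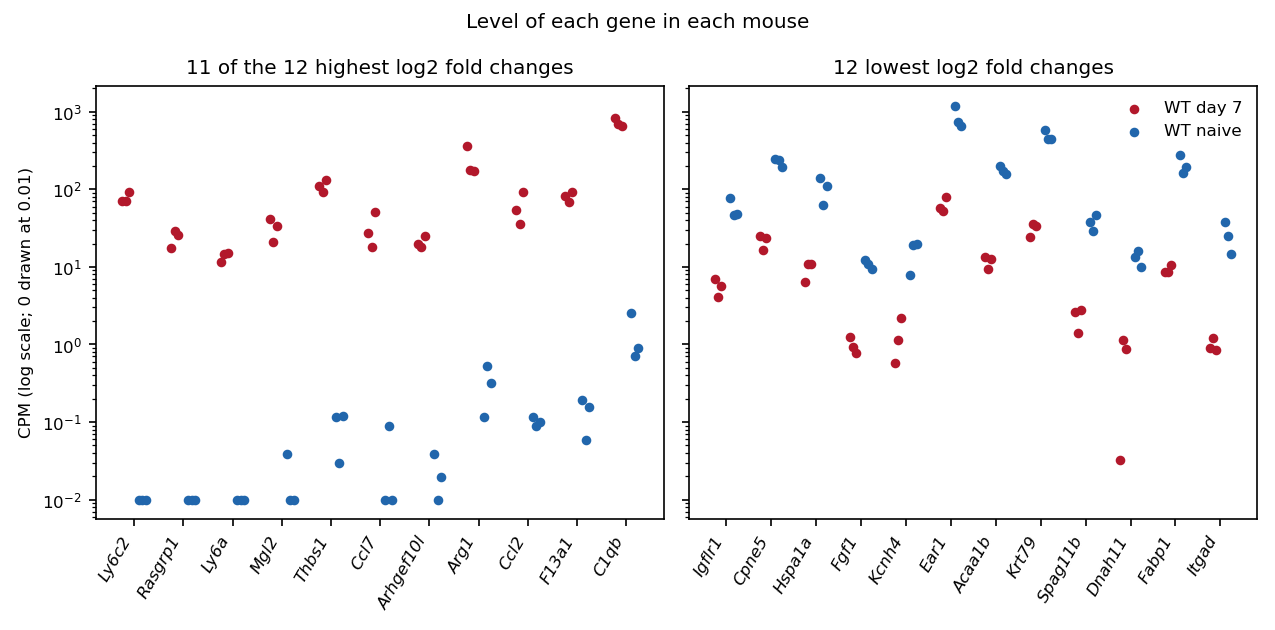
The y axis is the level in CPM on a log scale, with 0 drawn at 0.01, for 11 of the 12 genes with the highest fold changes and the 12 with the lowest; each point is a mouse, with WT day 7 left of WT naive. The genes were chosen to have no overlap of the groups. The naive points of Ly6c2, Rasgrp1 and Ly6a all lie at 0.

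The 12 lowest fold changes were chosen under the same conditions of level and no overlap. They were smaller and belong to genes that naive airspace macrophages express. Itgad, the alpha D chain of a beta 2 integrin, had 0.905, 1.2 and 0.857 CPM in the WT day 7 mice, against 37.9, 24.9 and 14.6 CPM in the WT naive mice, 25.8-fold lower in the fit. Its log2 fold change was -4.69 (SE 0.6, edgeR adjusted p 5.3e-06). Acaa1b, a thiolase of peroxisomal fatty acid breakdown, had 13.3, 9.4 and 12.7 CPM at day 7, against 199, 174 and 158 CPM in naive mice, 15-fold lower in the fit. Fgf1, a fibroblast growth factor, had 1.26, 0.931 and 0.774 CPM at day 7, against 12.1, 10.8 and 9.38 CPM in naive mice (log2 fold change -3.45, SE 0.3, adjusted p 3.5e-08). That every day 7 mouse lay below every naive mouse was a condition of the choice of these genes. Cpne5, a calcium-dependent membrane-binding protein, had 25, 16.5 and 23.4 CPM at day 7, against 243, 238 and 194 CPM in naive mice. Hspa1a, an inducible HSP70 chaperone with a near-identical neighbour Hspa1b, had 6.36, 11 and 11 CPM at day 7, against 138, 62.2 and 110 CPM in naive mice. Ear1, an eosinophil-associated ribonuclease with close copies in the genome, had 57.6, 52.8 and 79.5 CPM at day 7, against 1198, 746 and 661 CPM in naive mice. Counts of such copies, like those of Ly6c2, Ly6a and the hemoglobin genes, may be split between them.

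The remaining low genes were Fabp1 and Krt79, and Spag11b, Kcnh4, Igflr1 and Dnah11. Spag11b, a secreted protein of the beta-defensin type, had 2.62, 1.4 and 2.82 CPM at day 7, against 37.7, 28.9 and 47.1 CPM in naive mice. Kcnh4, a potassium channel, had 0.581, 1.15 and 2.18 CPM at day 7, against 7.77, 19 and 19.7 CPM in naive mice. Igflr1, a receptor of the TNF receptor family, had 6.91, 4.1 and 5.61 CPM at day 7, against 77.6, 46.3 and 48.5 CPM in naive mice. Here too the lack of overlap was required by the choice of genes. Dnah11, an axonemal dynein chain, had 0.0323, 1.13 and 0.885 CPM at day 7, against 13.6, 15.9 and 10 CPM in naive mice (log2 fold change -4.22, adjusted p 0.021). It lost its call without WT day 7 mouse 1 (adjusted p 0.07) or mouse 3 (0.054).

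In counts, as opposed to fold, the largest shifts were in genes expressed by both groups. Over all tested genes, called or not, 16% of CPM were gained by genes with a higher mean at day 7. Genes with a lower mean lost 14.3%. The top 20 genes carried 43.7% of the gain and 24.8% of the loss. Rn45s, whose share is given above, is counted in the gain and its top 20. The genes named next were taken from called genes with a standard symbol, which leaves Rn45s out. Ctsd, the lysosomal protease cathepsin D, had 13397, 14105 and 15222 CPM in the WT day 7 mice, against 9171, 9718 and 9745 CPM in the WT naive mice (log2 fold change 0.58, adjusted p 0.0039). Psap, the precursor of saposins that help degrade sphingolipids, had 12101, 11742 and 12016 CPM at day 7, against 7107, 6326 and 6380 CPM in naive mice. Ctsb, cathepsin B, had 4978, 4476 and 4619 CPM at day 7, against 2227, 1857 and 1865 CPM in naive mice. Mice of the same group lay within a narrow range for all 3, so modest folds were well resolved. The ferritin chains Fth1 and Ftl1 also stood among the largest gains, but both lost the call without WT day 7 mouse 1 (log2 fold change 0.29 and 0.36), and also without naive mouse 2 or 3. On the falling side, Chil3, a chitinase-like protein secreted by alveolar macrophages, had 5248, 4686 and 6058 CPM at day 7, against 20057, 14439 and 16707 CPM in naive mice. Cd44, the hyaluronan receptor, had 1135, 1157 and 1241 CPM at day 7, against 2428, 2558 and 2220 CPM in naive mice. Trf, transferrin, had 866, 1159 and 1103 CPM at day 7, against 2237, 2170 and 2317 CPM in naive mice.

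Genes were then grouped into lists by function, each read against the background of 20.2% higher and 15.3% lower among all tested genes. Resident and recruited macrophage genes moved apart. Of 30 resident alveolar macrophage genes, 21 fell and 4 rose, with a median log2 fold change of -0.84. Of 23 monocyte and recruited macrophage genes, 21 rose and 1 (Cd44) fell, with a median of 5.72. Itgam, the CD11b chain that monocytes carry and resident alveolar macrophages largely lack, had 311, 320 and 422 CPM in the WT day 7 mice, against 4.89, 4.23 and 3.48 CPM in the WT naive mice. Cx3cr1, the fractalkine receptor, had 90.5, 108 and 91.1 CPM at day 7, against 0.466, 0.206 and 0.297 CPM in naive mice. The resident gene Pparg had 74.6, 82.2 and 95.4 CPM at day 7, against 184, 179 and 173 CPM in naive mice, and so was still expressed in every injured mouse.

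**Figure D3:**
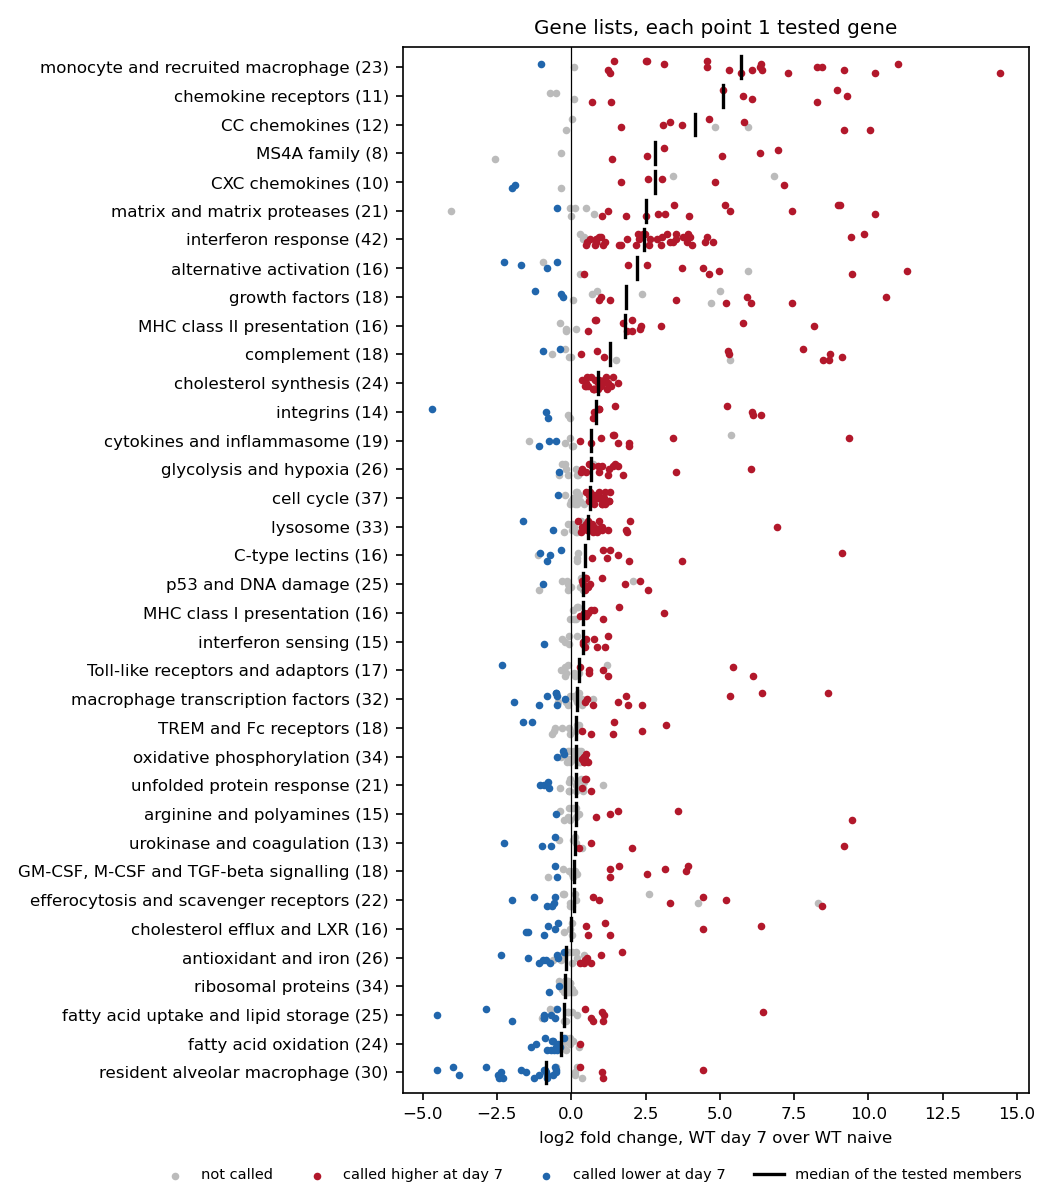
The x axis is the log2 fold change, WT day 7 over WT naive, and each row is a gene list with a point for each tested gene, coloured by its call. Monocyte genes (median 5.72), chemokine receptors (5.12) and interferon response genes (2.44) lie mostly right of 0, resident alveolar macrophage genes (-0.84) and fatty acid oxidation genes (-0.35) mostly left.

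Chemokines and their receptors were among the groups with the largest shifts. Of 12 tested CC chemokines, 8 rose and none fell, with a median log2 fold change of 4.18, or 3.21 with genes lacking naive counts set at their bound. Ccl9 had 459, 278 and 302 CPM in the WT day 7 mice, against 29.7, 17.1 and 31.9 CPM in the WT naive mice. Ccl17, a ligand of CCR4 on T cells, had 24.7, 14.3 and 25 CPM at day 7, against 0.738, 0.588 and 1.17 CPM in naive mice. Neither chemokine overlapped between groups. Ccl6, by contrast, was abundant in both, with 4674, 3161 and 4077 CPM at day 7, against 3982, 3418 and 4375 CPM in naive mice, and was not called (adjusted p 0.94). Of 10 tested CXC chemokines, 5 rose and 2 fell. Cxcl16, a membrane-bound chemokine and scavenger receptor, had 164, 138 and 139 CPM at day 7, against 6.64, 4.67 and 4.18 CPM in naive mice (log2 fold change 4.85, SE 0.33, edgeR adjusted p 3.3e-09). Cxcl10, a ligand of CXCR3 induced by interferon, had 14.8, 11.1 and 16.9 CPM at day 7, against 1.67, 2.03 and 3.27 CPM in naive mice.

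The 2 CXC chemokines that fell attract neutrophils. Cxcl2 had 0.452, 0.355 and 0.442 CPM in the WT day 7 mice, against 1.51, 1.44 and 2.1 CPM in the WT naive mice (log2 fold change -2.01, adjusted p 0.0018). Cxcl3 had 0.84, 0.443 and 1.58 CPM at day 7, against 3.69, 3.32 and 3.46 CPM in naive mice; its adjusted p of 0.031 exceeded 0.05 when any mouse other than WT day 7 mouse 3 was left out (0.056 to 0.11). Of 11 chemokine receptors, 8 rose and none fell. Ccr2 had 307, 324 and 302 CPM at day 7, against 5.05, 4.49 and 4.3 CPM in naive mice. Ccr1 was already present, with 217, 183 and 264 CPM at day 7, against 101, 79.3 and 79.5 CPM in naive mice (log2 fold change 1.35). Cxcr4, the CXCL12 receptor, had 156, 117 and 97.9 CPM at day 7, against 180, 191 and 164 CPM in naive mice. It was not called (log2 fold change -0.52, adjusted p 0.11) but fell with the mouse number as a block or without WT day 7 mouse 1.

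Of 19 tested cytokine and inflammasome genes, 10 rose and 3 fell, with a median log2 fold change of 0.66. Pycard, the inflammasome adaptor ASC, had 122, 82.3 and 96.5 CPM in the WT day 7 mice, against 41.3, 34.6 and 36.4 CPM in the WT naive mice (1.42, adjusted p 2.3e-05). Its effector protease Casp1 had 64.2, 51.5 and 52.2 CPM at day 7, against 53.5, 54 and 58.8 CPM in naive mice and was not called. The sensor Nlrc4 had 14.3, 18.8 and 18.2 CPM at day 7, against 22.2, 29.9 and 33.6 CPM in naive mice, and fell. The inflammasome substrates moved in opposite directions. Il18 had 109, 90 and 105 CPM at day 7, against 233, 198 and 207 CPM in naive mice (-1.07, adjusted p 8.5e-05). Il1b, named here after its values were seen, had 30.6, 23.3 and 46.4 CPM at day 7, against 8.78, 10.8 and 6.75 CPM in naive mice (1.94, adjusted p 0.0067). Il1r2, a decoy receptor for IL-1, had 2.23, 1.4 and 3.18 CPM at day 7 and no count in naive mice.

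Innate sensors split within families. Of 17 Toll-like receptors and adaptors, 7 rose and 1 fell, or 2 with the mouse number as a block, with thinned counts or without naive mouse 1. Tlr9, which senses DNA inside endosomes, had 27.7, 23.5 and 27.3 CPM in the WT day 7 mice, against 0.466, 0.558 and 0.713 CPM in the WT naive mice (log2 fold change 5.45, SE 0.43, adjusted p 1.4e-08). Tlr1, a partner of TLR2 for bacterial lipoproteins, had 16.9, 16.4 and 19 CPM at day 7, against 0.388, 0.147 and 0.238 CPM in naive mice. Tlr2 itself ranged over 514 to 661 CPM at day 7, against 396 to 640 CPM in naive mice, and the groups overlapped. Tlr5, the flagellin receptor, had 8.27, 4.45 and 5.94 CPM at day 7, against 30.3, 37 and 26.5 CPM in naive mice. The groups lay far apart, but its adjusted p of 0.031 exceeded 0.05 without naive mouse 2 or any 1 of the day 7 mice (0.051 to 0.096).

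Among the lists with over 30 tested genes, interferon response genes had the largest share of members that rose. Of 42 tested, 39 rose and none fell, with a median log2 fold change of 2.44; leaving out a mouse gave 37 to 41. Isg15, a ubiquitin-like protein that interferon induces, had 22.5, 23.4 and 21.1 CPM in the WT day 7 mice, against 2.8, 3.7 and 4.32 CPM in the WT naive mice (log2 fold change 2.62, SE 0.41, adjusted p 5.7e-05). Oas1a, a synthetase that answers double-stranded RNA, had 159, 109 and 125 CPM at day 7, against 34.6, 21 and 26.2 CPM in naive mice (2.27, SE 0.22, adjusted p 2.3e-07). Irgm1, a GTPase of cell-autonomous defence, had 71.2, 56.1 and 62.5 CPM at day 7, against 21.3, 19.2 and 19.6 CPM in naive mice (1.66, SE 0.18, adjusted p 5.5e-07). No group overlapped. Rsad2, the antiviral enzyme viperin, had 35, 31.5 and 36 CPM at day 7, against 3.46, 4.58 and 5.58 CPM in naive mice. Oas3, a relative of Oas1a, had 58.3, 53 and 48.5 CPM at day 7, against 5.32, 4.67 and 6.91 CPM in naive mice. Among the transducers, Irf9 had 71.1, 67.9 and 69.1 CPM at day 7, against 24, 21.4 and 23.4 CPM in naive mice, and of 15 interferon receptors, kinases and sensors 8 rose and 1 (Mavs) fell, or 2 with the mouse number as a block, with a median of 0.41. Isg15, Rsad2 and Oas3 were named after their values were seen.

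Type I interferon acts through the factor complex ISGF3, which binds repeats of the letters GAAA spaced by a pair of bases in the promoters of its targets. These 5 promoters, all on the minus strand of GRCm38.p6, are shown because each holds such a spaced repeat within the 150 bases before the start. The 150 bases before the RefSeq gene start are given 5′ to 3′, and capitals mark matches to GAAANNGAAA on either strand. They lie at chr4:156200819-156200968 (Isg15), chr5:120907526-120907675 (Oas1a), chr11:48871421-48871570 (Irgm1), chr12:26456453-26456602 (Rsad2) and chr5:120777660-120777809 (Oas3).
Isg15: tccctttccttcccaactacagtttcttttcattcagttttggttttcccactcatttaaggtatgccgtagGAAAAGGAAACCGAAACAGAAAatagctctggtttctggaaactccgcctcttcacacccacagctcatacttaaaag
Oas1a: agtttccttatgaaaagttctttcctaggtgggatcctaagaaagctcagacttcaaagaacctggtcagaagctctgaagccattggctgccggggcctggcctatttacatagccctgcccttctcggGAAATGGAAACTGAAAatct
Irgm1: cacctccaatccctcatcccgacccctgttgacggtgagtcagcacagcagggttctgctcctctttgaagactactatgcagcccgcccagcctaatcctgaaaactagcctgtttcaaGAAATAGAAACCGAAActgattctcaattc
Rsad2: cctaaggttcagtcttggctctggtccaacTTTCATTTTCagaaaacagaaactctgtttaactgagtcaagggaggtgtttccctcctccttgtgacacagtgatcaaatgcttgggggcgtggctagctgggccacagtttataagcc
Oas3: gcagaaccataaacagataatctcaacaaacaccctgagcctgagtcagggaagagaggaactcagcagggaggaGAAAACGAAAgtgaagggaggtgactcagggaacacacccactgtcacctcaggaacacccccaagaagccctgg
In Isg15 the 3 overlapping matches begin 78 to 66 bases before the start, in Oas1a the 2 begin 20 and 14 bases before it, and in Irgm1 30 and 24 bases before it. Rsad2 holds 1 match, on the opposite strand, which begins 120 bases before the start, and Oas3 holds 1, which begins 75 bases before it. In the 250 bases upstream of the start, 16 of the 30 tested list genes with a RefSeq promoter (53.3%) held the motif. Among the 28 that rose, 15 held it (53.6%). The shares were 936 of 27025 among all genes with a promoter (3.46%) and 320 of 9613 among tested ones (3.33%). The list was chosen as interferon response genes, so a high share follows from that choice and is no result about these mice. A match is a description of letters, not of binding.

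Antigen presentation genes rose broadly. Of 16 tested MHC class II genes, 12 rose and none fell, with a median log2 fold change of 1.82. Cd74, the invariant chain that guides class II molecules, had 4760, 4462 and 4547 CPM in the WT day 7 mice, against 1981, 1210 and 915 CPM in the WT naive mice, 3.35-fold higher in the fit. The class II chain H2-Eb1, named after its values were seen, had 1325, 1033 and 1111 CPM at day 7, against 218, 120 and 86.8 CPM in naive mice. For both genes the day 7 mice lay within a narrow band, while naive mouse 1 was the highest of the naive mice. The costimulator Cd86 had 33.4, 40.1 and 36.5 CPM at day 7, against 9.44, 7.05 and 5.3 CPM in naive mice, and Cd40 had 8.27, 8.89 and 6.77 CPM, against 0.0388, 0.206 and 0.158 CPM in naive mice. H2-DMa, which helps load class II molecules, had 293, 259 and 279 CPM at day 7, against 430, 321 and 327 CPM in naive mice; it was not called (adjusted p 0.057) but was with the mouse number as a block. Of 16 class I genes, 10 rose and none fell, with a median of 0.41; with only the 2 groups fitted, 6 rose. The peptide transporter Tap1 had 134, 138 and 122 CPM at day 7, against 46, 43.6 and 40.2 CPM in naive mice. Nlrc5, the transactivator of class I genes, had 18.2, 27.8 and 21.3 CPM at day 7, against 1.67, 2.7 and 3.21 CPM in naive mice.

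Of 37 cell cycle genes, 22 rose and 1 fell, with a median log2 fold change of 0.63; leaving out a mouse gave 20 to 23. Plk1, a kinase of mitosis, had 44.8, 37 and 37.6 CPM in the WT day 7 mice, against 16.5, 16.4 and 15.4 CPM in the WT naive mice (1.31, adjusted p 1.8e-05). Birc5, survivin, had 37.7, 34.9 and 30.2 CPM at day 7, against 16.5, 14.2 and 16 CPM in naive mice (1.14). Rrm2, a subunit of the enzyme that makes deoxynucleotides, had 86.3, 86.4 and 83.5 CPM at day 7, against 43.8, 44.6 and 48.6 CPM in naive mice (0.90, SE 0.1, adjusted p 7.8e-07). Naive airspace macrophages already carried these transcripts, and every day 7 mouse lay above every naive mouse. Ccne1, cyclin E1, had 16.5, 14.7 and 12.1 CPM at day 7, against 5.2, 6.32 and 6.35 CPM in naive mice. Pcna, the replication clamp, had 202, 184 and 200 CPM at day 7, against 227, 173 and 190 CPM in naive mice (-0.01, adjusted p 0.95). The helicase subunits Mcm2 to Mcm7 were not called either; they and Mki67 were named after their values were seen. Mki67 had 17.8, 157 and 88.6 CPM at day 7, against 17, 81.1 and 98 CPM in naive mice, with mouse 1 of each group far below the other two. In 9 of the cell cycle genes mouse 1 was the lowest of its group on both sides. In more of them, Plk1, Birc5 and Pcna included, mouse 1 was the highest of its group on both sides. E2f1, the only member called lower (-0.44, adjusted p 0.038), lost the call whichever of the 6 mice was left out.

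Of 25 tested p53 and DNA damage genes, 11 rose and 1 fell, with a median log2 fold change of 0.41; with only the 2 groups fitted, 6 rose and 2 fell, and 2 also fell with the mouse number as a block. Sesn1, a p53 target that restrains mTORC1, had 23.5, 20.7 and 16.6 CPM in the WT day 7 mice, against 3.53, 2.67 and 3.76 CPM in the WT naive mice (2.60, adjusted p 5.5e-06). Gadd45a, a stress sensor of damaged DNA, had 4.46, 4.43 and 4.98 CPM at day 7, against 1.4, 1.35 and 1.19 CPM in naive mice (1.82). Bax, a mediator of apoptosis, had 108, 95.3 and 108 CPM at day 7, against 71.5, 66.3 and 73.4 CPM in naive mice (0.56). None of these 3 groups overlapped. Cdkn1a, the p53-induced inhibitor p21, had 221, 174 and 281 CPM at day 7, against 172, 147 and 159 CPM in naive mice. It was not called (0.50, adjusted p 0.065) but was with the mouse number as a block. Xpc, which recognises damaged bases for excision repair, had 11.3, 18.2 and 16.6 CPM at day 7, against 28, 30 and 31.7 CPM in naive mice and fell.

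Genes of energy use moved in opposite directions by pathway. Of 26 glycolysis and hypoxia genes, 16 rose and 1 fell, with a median log2 fold change of 0.65; 3 fell with the mouse number as a block and 2 without WT day 7 mouse 1. Slc2a1, the glucose transporter GLUT1, had 91.5, 78.4 and 88.2 CPM in the WT day 7 mice, against 23.7, 25.7 and 27.3 CPM in the WT naive mice (1.75, adjusted p 4.3e-07). Eno1, enolase 1, had 1552, 1173 and 1399 CPM at day 7, against 671, 535 and 546 CPM in naive mice (1.23). Hif1a, the hypoxia-inducible factor, had 214, 195 and 213 CPM at day 7, against 98.9, 108 and 93.3 CPM in naive mice (1.05). All 3 were separated by group. The pathway did not move as a block: Gapdh had 3764, 2955 and 3585 CPM at day 7, against 3586, 2779 and 2835 CPM in naive mice (0.16, adjusted p 0.24).

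Of 24 fatty acid oxidation genes, 13 fell and 1 rose, with a median log2 fold change of -0.35. Hadhb, the beta chain of the mitochondrial trifunctional protein, had 113, 97.9 and 97.3 CPM in the WT day 7 mice, against 224, 173 and 169 CPM in the WT naive mice (-0.88, adjusted p 4.5e-05). Hsd17b4, an enzyme of peroxisomal beta-oxidation, had 200, 199 and 227 CPM at day 7, against 536, 450 and 437 CPM in naive mice (-1.19). Acadsb, the member called higher (0.29, adjusted p 0.027), lost the call without WT day 7 mouse 1, naive mouse 2 or naive mouse 3. Of 34 nuclear oxidative phosphorylation genes, 8 rose and 3 fell. The rising count rested on single mice: 1 rose without WT day 7 mouse 1, 2 without naive mouse 2, 3 without naive mouse 3, 14 without day 7 mouse 2 and 18 without naive mouse 1. With the mouse number as a block 16 rose, and 2 when only the 2 groups were fitted. Of those that fell, 1 was left without WT day 7 mouse 2 or naive mouse 1 or 3, and 0 when only the 2 groups were fitted. Cycs, cytochrome c, had 149, 111 and 126 CPM at day 7, against 105, 79.2 and 89.7 CPM in naive mice (0.49).

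Cholesterol synthesis genes rose together, while lists of lipid uptake, storage and export held genes that rose and genes that fell. All 24 cholesterol synthesis genes tested rose and none fell, with a median log2 fold change of 0.89; leaving out a mouse gave 21 to 24. Idi1, an isomerase of the isoprenoid steps, had 231, 129 and 162 CPM in the WT day 7 mice, against 73, 64.5 and 66.7 CPM in the WT naive mice (1.35, adjusted p 3.5e-05). Stard4, a carrier of sterols within the cell, had 32, 29.4 and 32.9 CPM at day 7, against 13.3, 14.9 and 15.7 CPM in naive mice (1.10, SE 0.14). Both were higher in all 3 day 7 mice than in any naive mouse. The change of each single gene was modest: against a fold of 1.5, only 9 of the 24 were called.

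Of 16 efflux and LXR genes, 6 rose and 6 fell. Abcg1, which exports cholesterol to lipoproteins, had 1043, 1292 and 1298 CPM in the WT day 7 mice, against 3428, 3728 and 3347 CPM in the WT naive mice (log2 fold change -1.53, adjusted p 6.6e-06). Mylip, a ligase that removes the LDL receptor, had 29.9, 42.8 and 27.1 CPM at day 7, against 87.6, 100 and 89.3 CPM in naive mice (-1.47). Apoc2, the cofactor of lipoprotein lipase, moved the other way, with 19.6, 21.6 and 18.1 CPM at day 7, against 0.505, 0.323 and 0 CPM in naive mice (6.39, or 5.60 to 7.15 with a naive mouse left out). Of 25 fatty acid uptake and storage genes, 7 rose and 9 fell. Cd36, a fatty acid translocase and scavenger receptor, had 177, 130 and 176 CPM at day 7, against 695, 629 and 593 CPM in naive mice (-1.99). Fabp3 and Fabp5, carriers of fatty acids, rose beside the fall of Fabp1. Fabp3 had 8.11, 6.01 and 3.26 CPM at day 7, against 0, 0.0881 and 0.0792 CPM in naive mice, and Fabp5 had 946, 672 and 847 CPM, against 367, 383 and 424 CPM in naive mice.

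Matrix proteins and the proteases that cut them rose. Of 21 tested, 14 rose and 1 fell, with a median log2 fold change of 2.53. Mmp14, a membrane-bound collagenase, had 238, 360 and 313 CPM in the WT day 7 mice, against 2.21, 1.38 and 1.7 CPM in the WT naive mice (7.44, SE 0.68, adjusted p 9.1e-08). Adam8, a metalloprotease of leukocytes, had 67.4, 60.2 and 88.5 CPM at day 7, against 0.194, 0.235 and 0.0396 CPM in naive mice (8.99, or 8.36 without naive mouse 3). Tgfbi, a TGF-beta-induced matrix protein, had 2909, 2559 and 2955 CPM at day 7, against 1155, 1184 and 1228 CPM in naive mice (1.24). None of these groups overlapped. Mmp12, macrophage elastase, had 242, 177 and 150 CPM at day 7, against 6.02, 7.08 and 22.4 CPM in naive mice (3.98, or 4.86 without naive mouse 3). Lgals3, galectin 3, which is high in alveolar macrophages, had 1808, 1301 and 1624 CPM at day 7, against 1838, 1526 and 1549 CPM in naive mice and was not called. Tgm2, a matrix-crosslinking transglutaminase, was the member called lower (-0.49, adjusted p 0.02), and lost the call without WT day 7 mouse 1 (0.058), day 7 mouse 2 (0.099) or naive mouse 2 (0.087).

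Of 18 growth factors, 9 rose and 3 fell, with a median log2 fold change of 1.85, or 1.44 with genes lacking naive counts set at their bound. Of the 3 that fell, 1 was left without WT day 7 mouse 1 or 3 or naive mouse 2, or with only the 2 groups fitted. Pdgfb, a mitogen of fibroblasts and pericytes, had 10.6, 19.8 and 15.7 CPM in the WT day 7 mice, against 1.09, 1.62 and 1.33 CPM in the WT naive mice (3.51, SE 0.45, adjusted p 6.3e-06). Pdgfa had 3.23, 6.52 and 5.8 CPM at day 7 and 3 counts in all naive mice together, a ratio of 198 (67.4 to 962). Grn, progranulin, had 2717, 2233 and 2460 CPM at day 7, against 1455, 1257 and 1190 CPM in naive mice (0.93). Transforming growth factor beta went the other way. Tgfb1 had 459, 437 and 480 CPM at day 7, against 595, 630 and 547 CPM in naive mice (-0.36, SE 0.07, adjusted p 0.00057). Its receptors also fell, Tgfbr1 by 0.54 and Tgfbr2 by 0.48 on the log2 scale, while Smad3, a transducer of the pathway, had 3.2, 3.66 and 2.76 CPM at day 7, against 0.194, 0.147 and 0.297 CPM in naive mice and rose. Csf1, the macrophage growth factor M-CSF, had 7.53, 13.1 and 18.7 CPM at day 7, against 0.194, 0.823 and 1.39 CPM in naive mice (3.93, or 4.62 without naive mouse 3), and its receptor Csf1r had 747, 782 and 845 CPM, against 331, 307 and 330 CPM in naive mice.

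Of 16 alternative activation genes, 9 rose and 4 fell. Besides Arg1 and Mgl2, the scavenger receptor Msr1 had 349, 348 and 365 CPM in the WT day 7 mice, against 11.6, 14.6 and 22.3 CPM in the WT naive mice (log2 fold change 4.44, adjusted p 1.3e-07). Mrc1, the mannose receptor, had 982, 1145 and 1141 CPM at day 7, against 1670, 2070 and 1947 CPM in naive mice (-0.80), so that markers used for the same state moved in opposite directions. Of 15 arginine and polyamine genes, 5 rose (3 under limma-voom) and 1 fell (2 without naive mouse 2). The polyamine oxidases Smox, with 27.1, 24.6 and 23.9 CPM at day 7 against 11.1, 9.87 and 10 CPM in naive mice, and Paox (1.56) both rose. Of 13 urokinase and coagulation genes, 4 rose (2 without WT day 7 mouse 1 or naive mouse 2, with no filter or with only the 2 groups fitted) and 4 fell. Plau, the protease urokinase, had 62.5, 81.8 and 102 CPM at day 7, against 19.1, 16.8 and 23.7 CPM in naive mice (2.04, adjusted p 2e-06).

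Receptors by which macrophages take up cells and debris moved in both directions. Of 22 efferocytosis and scavenger genes, 6 rose and 6 fell, with a median log2 fold change of 0.09. Stab1, stabilin 1, had 201, 157 and 191 CPM in the WT day 7 mice, against 1.05, 0.118 and 0.515 CPM in the WT naive mice (8.43, or 9.03 without naive mouse 1). Mfge8, which bridges dying cells to integrins, had 114, 124 and 127 CPM at day 7, against 15.1, 11 and 10.9 CPM in naive mice (3.31). Both were separated by group. Among ligands of the TAM receptors, Gas6 had 14.4, 9.2 and 7.99 CPM at day 7, against 0.233, 0.147 and 0.416 CPM in naive mice, and Pros1 had 142, 181 and 143 CPM, against 402, 378 and 332 CPM in naive mice (-1.25). The receptors Mertk and Axl fell by 0.65 and 0.59 on the log2 scale, and were named after their values were seen. Marco, a scavenger receptor of resident cells, had 574, 468 and 774 CPM at day 7, against 472, 460 and 715 CPM in naive mice, and the groups overlapped.

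Of 18 complement genes, 10 rose and 2 fell, or 1 with only the 2 groups fitted. C5ar2, a second C5a receptor, was the other that fell, and lost its call without WT day 7 mouse 2 or 3 or naive mouse 2 or 3 (adjusted p 0.088 to 0.13). C3ar1, the C3a receptor, had 338, 272 and 315 CPM in the WT day 7 mice, against 1.51, 0.499 and 0.713 CPM in the WT naive mice (log2 fold change 8.48, SE 0.64, adjusted p 9.7e-09). C5ar1, the C5a receptor, had 318, 220 and 262 CPM at day 7, against 613, 487 and 450 CPM in naive mice and fell (-0.96, adjusted p 0.0038), so C3ar1 and C5ar1 moved apart. Of 16 C-type lectins, 8 rose and 4 fell. Clec5a, a DAP12-coupled receptor, had 181, 169 and 183 CPM at day 7, against 55.2, 62.9 and 62 CPM in naive mice, and Clec4b1 had 6.23, 6.85 and 9.32 CPM, against 17.4, 14.1 and 15.3 CPM in naive mice. Clec7a, the beta-glucan receptor dectin 1, was high in both, with 1699, 1481 and 1756 CPM at day 7, against 1426, 1362 and 1434 CPM in naive mice. It was not called (0.23, adjusted p 0.12) but was with the mouse number as a block. Of 8 MS4A genes, 6 rose and none fell, or 1 fell with the mouse number as a block, without WT day 7 mouse 1 or without naive mouse 2. Ms4a6b had 31.2, 22.7 and 26.3 CPM at day 7, against 0.388, 0.118 and 0.178 CPM in naive mice.

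Of 18 TREM and Fc receptor genes, 6 rose and 2 fell, or 5 fell with the mouse number as a block, 4 without naive mouse 2 and 1 without WT day 7 mouse 2, where Treml4 lost its call (adjusted p 0.063). Trem2, a lipid receptor, had 274, 210 and 213 CPM in the WT day 7 mice, against 49.3, 38.8 and 44.4 CPM in the WT naive mice. Fcgr1, the high-affinity IgG receptor, had 185, 169 and 176 CPM at day 7, against 74.1, 59.7 and 62.9 CPM in naive mice (log2 fold change 1.43). Fcgrt, the neonatal Fc receptor, had 156, 132 and 145 CPM at day 7, against 565, 398 and 383 CPM in naive mice (-1.63, adjusted p 7.5e-06). Of 14 integrins, 9 rose and 3 fell. Itgb7, the beta 7 chain that pairs with alpha 4 and alpha E, had 24.6, 23.8 and 26.8 CPM at day 7, against 0.66, 0.264 and 0.238 CPM in naive mice (6.11). Itgal, the alpha chain of LFA-1, had 367, 439 and 423 CPM at day 7, against 746, 753 and 622 CPM in naive mice (-0.79). The beta 2 chain Itgb2, shared by Itgam, Itgal, Itgad and Itgax, had 2259, 2253 and 2339 CPM at day 7, against 2490, 2291 and 2259 CPM in naive mice and was not called; its alpha partners moved in both directions. Itgal was named after its values were seen.

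Of 33 lysosome genes, 23 rose and 2 fell, with a median log2 fold change of 0.56. Lgmn, an asparagine-specific protease, had 1211, 1050 and 1184 CPM in the WT day 7 mice, against 317, 297 and 315 CPM in the WT naive mice (1.89). Ctsf, cathepsin F, had 8.95, 10.9 and 12.6 CPM at day 7, against 35.9, 31.2 and 31.9 CPM in naive mice, and fell against the direction of most cathepsins. Of 26 antioxidant and iron genes, 7 rose and 9 fell; 4 rose without WT day 7 mouse 1 or naive mouse 2, 5 fell without naive mouse 1, and 3 rose and 5 fell with only the 2 groups fitted. The metallothioneins fell: Mt1 had 193, 148 and 181 CPM at day 7, against 611, 403 and 414 CPM in naive mice (-1.45), and Mt2 fell by 2.35 on the log2 scale. Catalase (Cat) had 178, 165 and 160 CPM at day 7, against 364, 272 and 267 CPM in naive mice (-0.84), while the peroxidase Prdx6 had 148, 90.1 and 112 CPM, against 68.6, 54.1 and 53.3 CPM in naive mice (0.99). Of 21 unfolded protein response genes, 4 rose and 4 fell, with 2 of either left when single mice were dropped: the chaperone Hspa5 rose by 0.66 and the factor Xbp1 fell by 0.93 on the log2 scale. Of 34 ribosomal protein genes, none rose and 2 fell, with a median of -0.21. That count of 2 was 20 with the mouse number as a block, 18 without WT day 7 mouse 1, 4 without naive mouse 2, and 1 without WT day 7 mouse 2 or 3, without naive mouse 3 or with only the 2 groups fitted.

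Among 32 transcription factors of macrophages, 10 rose and 8 fell, with a median log2 fold change of 0.21. Maf, linked to tissue macrophages other than alveolar ones, had 15.9, 25.6 and 26.1 CPM in the WT day 7 mice, against 0.505, 0.47 and 0.633 CPM in the WT naive mice (5.36). Runx3 had 14.7, 19.1 and 24.2 CPM at day 7, against 0, 0.0881 and 0.0396 CPM in naive mice (8.63, or 9.36 without naive mouse 2). Rbpj, the factor through which Notch acts, had 145, 137 and 156 CPM at day 7, against 43.9, 54.1 and 50.2 CPM in naive mice (1.56). Cebpa, a myeloid factor needed for alveolar macrophages, averaged 428 ± 30.8 CPM at day 7, against 593 ± 3.47 CPM in naive mice (SD, n = 3 each; -0.47). Bhlhe40 had 264, 306 and 273 CPM at day 7, against 262, 231 and 248 CPM in naive mice and was not called. Of 18 genes of GM-CSF, M-CSF and TGF-beta signalling, 7 rose and 2 fell, or 4 fell without naive mouse 2; Socs3, a feedback inhibitor of cytokine signals, had 144, 110 and 95.8 CPM at day 7, against 18.5, 8.58 and 11.9 CPM in naive mice (3.17).

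Markers of several other cell types were low but higher at day 7, which bears on each group above that such cells also express; their part in those changes was not tested. T cell markers other than Cd2, 12 genes, summed to 51, 65.1 and 67.1 CPM in WT day 7 mice 1, 2 and 3, against 2.02, 0.823 and 0.95 CPM in WT naive mice; all 12 rose, of 13 tested. Il7r was the largest part of that sum, with 31.2, 32.5 and 35 CPM at day 7, while the defining chain Cd3e had 3.26, 5.65 and 5.75 CPM. Cd3e had no count in naive mice. Cd2, which naive airspace macrophages express, fell, with 153, 143 and 143 CPM at day 7, against 447, 400 and 412 CPM in naive mice. Dendritic cell markers other than Ccl22 and Batf3 summed to 16.5, 16.9 and 18.9 CPM at day 7, against 0.816, 0.764 and 0.871 CPM in naive mice. With both included the sums were 30.4 to 34.2 CPM at day 7, against 18.9 to 19.1 CPM in naive mice. Of 11 tested, 8 rose and 1 fell. Batf3, the one that fell, had 1.13, 1.24 and 1.19 CPM at day 7, against 2.18, 3.76 and 3.44 CPM in naive mice. Ccl22 had 12.8, 12.6 and 14.2 CPM at day 7, against 16.1, 14.4 and 14.6 CPM in naive mice, and was not called. All 7 tested NK and cytotoxic markers rose, but 4 did with the mouse number as a block, without WT day 7 mouse 3 or without any 1 naive mouse, and they summed to 3.92 to 5.39 CPM at day 7, against 0.0388 to 0.0588 CPM in naive mice.

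Neutrophil markers other than Csf3r, Cxcr2 and Mmp8, which naive macrophages express, summed to 40.7, 17.2 and 29.1 CPM in the WT day 7 mice, against 7.07, 4.64 and 5.74 CPM in the WT naive mice. S100a8 made up most of it, and the granule genes Camp, Ngp, Elane and Stfa2l1 had no count in any of the 6 mice. Of 8 neutrophil markers tested, 3 rose and 1 fell; Lcn2 lost its call without WT day 7 mouse 1 (adjusted p 0.12), and Csf3r, the one that fell, without any 1 mouse but WT day 7 mouse 2 (0.076 to 0.14) and with RLE scaling or thinned counts. WT day 7 mouse 3 stood apart in epithelial RNA. Its surfactant gene Sftpc had 85.3 CPM, against 1.32 and 0.155 CPM in day 7 mice 1 and 2 and 0.505, 0.294 and 0.218 CPM in naive mice. Epithelial markers other than Cdh1 and Hopx summed to 3, 3.28 and 131 CPM at day 7, against 1.01, 1.12 and 1.62 CPM in naive mice. Of 11 epithelial markers, 6 rose and 1 fell, but without that mouse 1 rose, as under limma-voom, and 2 with only the 2 groups fitted. The one that fell, Cdh1, lost its call without day 7 mouse 1 or 2 or naive mouse 2 or 3. Hopx, a homeobox gene of alveolar type 1 cells, did not follow that mouse, with 44, 40.3 and 36.1 CPM at day 7, against 2.99, 2.32 and 2.89 CPM in naive mice. The 7 B and plasma cell markers analysed, without Ighm, Ighd and Igkc, summed to 0.129 to 0.931 CPM at day 7, against 0.099 to 0.35 CPM in naive mice, and these sums overlapped. Of 3 tested, 1 rose: Cd79b, with 0.0969, 0.82 and 0.525 CPM at day 7, against 0, 0.0294 and 0 CPM in naive mice. Markers of eosinophils and mast cells summed to 1.26 to 1.85 CPM at day 7, against 0 to 0.0881 CPM in naive mice. Of 2 tested, 1 (Kit) rose. Those of stroma and endothelium summed to 1.87, 4.26 and 11 CPM at day 7, against 0.0777 to 0.376 CPM in naive mice. Of 5 tested, 1 (Kdr) rose. Red cell genes reached 124 CPM in day 7 mouse 2, against 13 and 13.5 CPM in the other day 7 mice and 16.8 CPM in naive mouse 3, so these sums overlapped. Of 5 tested, 1 rose: Hbb-bt, with 1.78, 7.42 and 1.38 CPM at day 7 and no count in naive mice.

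**Figure D4:**
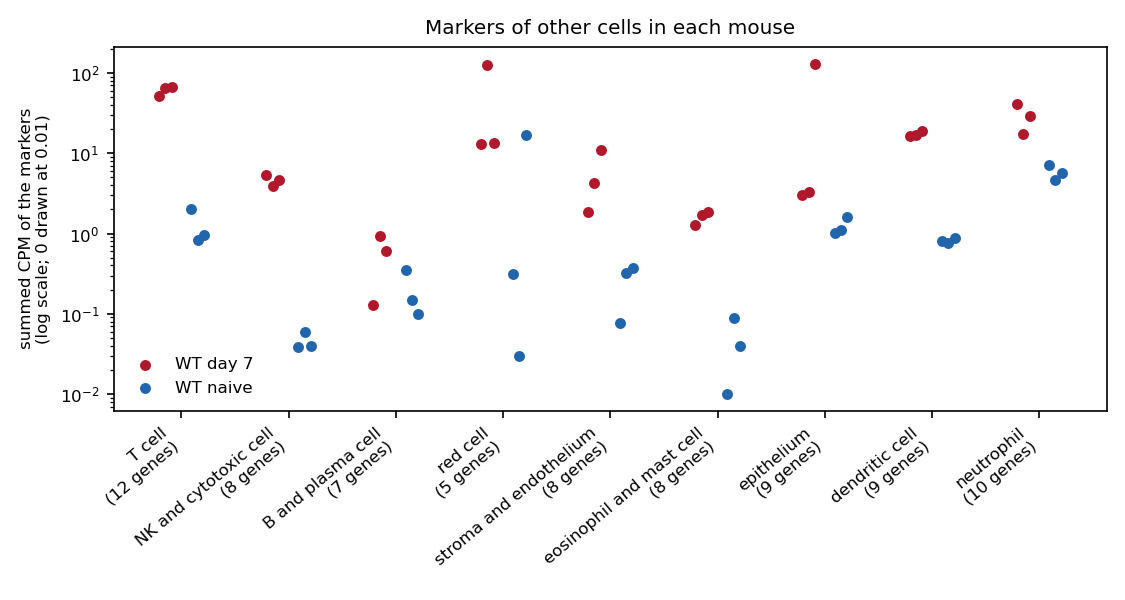
The y axis is the summed CPM of each cell type's markers on a log scale, with 0 drawn at 0.01; each point is a mouse, with WT day 7 left of WT naive, and Cd2, Cdh1, Hopx, Ccl22, Batf3, Csf3r, Cxcr2 and Mmp8 are left out of the sums. T cell sums of 51 to 67.1 CPM at day 7 lie above the naive sums of 0.823 to 2.02 CPM, and 1 day 7 mouse reaches 131 CPM in epithelial markers.

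The second comparison asked which levels were particular to day 7 among the WT mice after bleomycin, by setting the WT day 7 mice against the mean of WT days 14 and 21. It shares the day 7 mice with the first comparison. Called genes made up 13.5% of the 12634 tested (1704 genes), 7.43% (939) higher and 6.06% (765) lower at day 7. The highest were monocyte genes and chemokines. Ly6c2 had 70.8, 70.7 and 92.8 CPM at day 7, 2.9, 4.5 and 9.55 CPM at day 14 and 3.6, 2.49 and 2.38 CPM at day 21 (log2 difference 4.28, SE 0.47, edgeR adjusted p 1.5e-05). Ccl2 had 53.6, 35.9 and 92.2 CPM at day 7, 2.65, 5.79 and 7.19 CPM at day 14 and 4, 3.67 and 6.91 CPM at day 21 (3.59). Mgl2 had 41.7, 20.9 and 34.1 CPM at day 7, 3.63, 2.54 and 6.89 CPM at day 14 and 3.54, 1.97 and 3.32 CPM at day 21 (3.16). In all 3 genes every day 7 mouse lay above every later mouse, and the later mice were still above the naive ones. Ccl7 (4.02), the leukotriene B4 receptor Ltb4r1 (3.01) and Tmem119 (2.67), a membrane protein known from microglia, completed the 6 highest. Of the 23 monocyte genes, 11 were higher at day 7 and none lower.

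Nearly all cell cycle genes were higher at day 7 than later: 34 of 37, none lower, and 32 to 34 with a mouse left out. These genes include ones not called against naive mice. Pcna had 202, 184 and 200 CPM at day 7, 148, 164 and 151 CPM at day 14 and 150, 143 and 145 CPM at day 21 (log2 difference 0.38, adjusted p 0.0034), after 227, 173 and 190 CPM in naive mice. Plk1 had 44.8, 37 and 37.6 CPM at day 7, 22.4, 20.4 and 22.1 CPM at day 14 and 22.3, 23 and 24.3 CPM at day 21 (0.83). Rrm2 had 86.3, 86.4 and 83.5 CPM at day 7, 48.5, 51.3 and 44.5 CPM at day 14 and 41.5, 40.8 and 41 CPM at day 21 (0.94, SE 0.08, adjusted p 5.3e-07). Every day 7 mouse lay above every mouse of the other times for Plk1 and Rrm2. For Pcna and Mcm2 to Mcm7 every later mouse lay below every naive mouse, whereas for Plk1 every later mouse lay above every naive mouse. Of 42 interferon response genes, 16 were higher at day 7 and none lower; the count ranged from 6 (without WT day 7 mouse 1) to 16 with a mouse left out, and was 30 with the mouse number as a block.

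The 6 lowest at day 7 against the later days were Clu (-3.59), Pianp (-3.21), the gelatinase gene Mmp2 (-2.74), the heparan sulfate carrier Sdc1 (-2.72), Mfge8 (-2.66) and Slc40a1 (-2.22). Mfge8 had 114, 124 and 127 CPM at day 7, 538, 491 and 651 CPM at day 14 and 1111, 1030 and 1008 CPM at day 21, after 15.1, 11 and 10.9 CPM in naive mice. Clu, the extracellular chaperone clusterin, had 0.194, 0.909 and 1.05 CPM at day 7, 7.24, 3.37 and 8.31 CPM at day 14 and 13.1, 9.66 and 14.6 CPM at day 21. Slc40a1, the iron exporter ferroportin, was also lower at day 7 (7.66, 9.57 and 5.72 CPM) than in naive mice (25.6, 12.3 and 10.6 CPM), but lost that call without WT day 7 mouse 1 (adjusted p 0.059), day 7 mouse 3 (0.1) or naive mouse 1 (0.21). Spp1, osteopontin, had 4008, 3217 and 3078 CPM at day 7, after 428, 321 and 400 CPM in naive mice. At days 14 and 21 Spp1 had between 12274 and 17922 CPM. For Mfge8, Clu and Spp1 every day 7 mouse lay below every later mouse. Trf was lowest at day 7, with 866, 1159 and 1103 CPM, and between 1785 and 2391 CPM later (log2 difference -0.98). Of 33 lysosome genes 12 were lower at day 7 and 1 higher (0 without day 7 mouse 1 or 3); of 30 resident alveolar macrophage genes 10 were lower, or 6 without day 7 mouse 1 or day 14 mouse 1; of 24 cholesterol synthesis genes 11 were lower, or 3 without day 7 mouse 2 and 5 or 6 without any of 4 other mice.

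**Figure D5:**
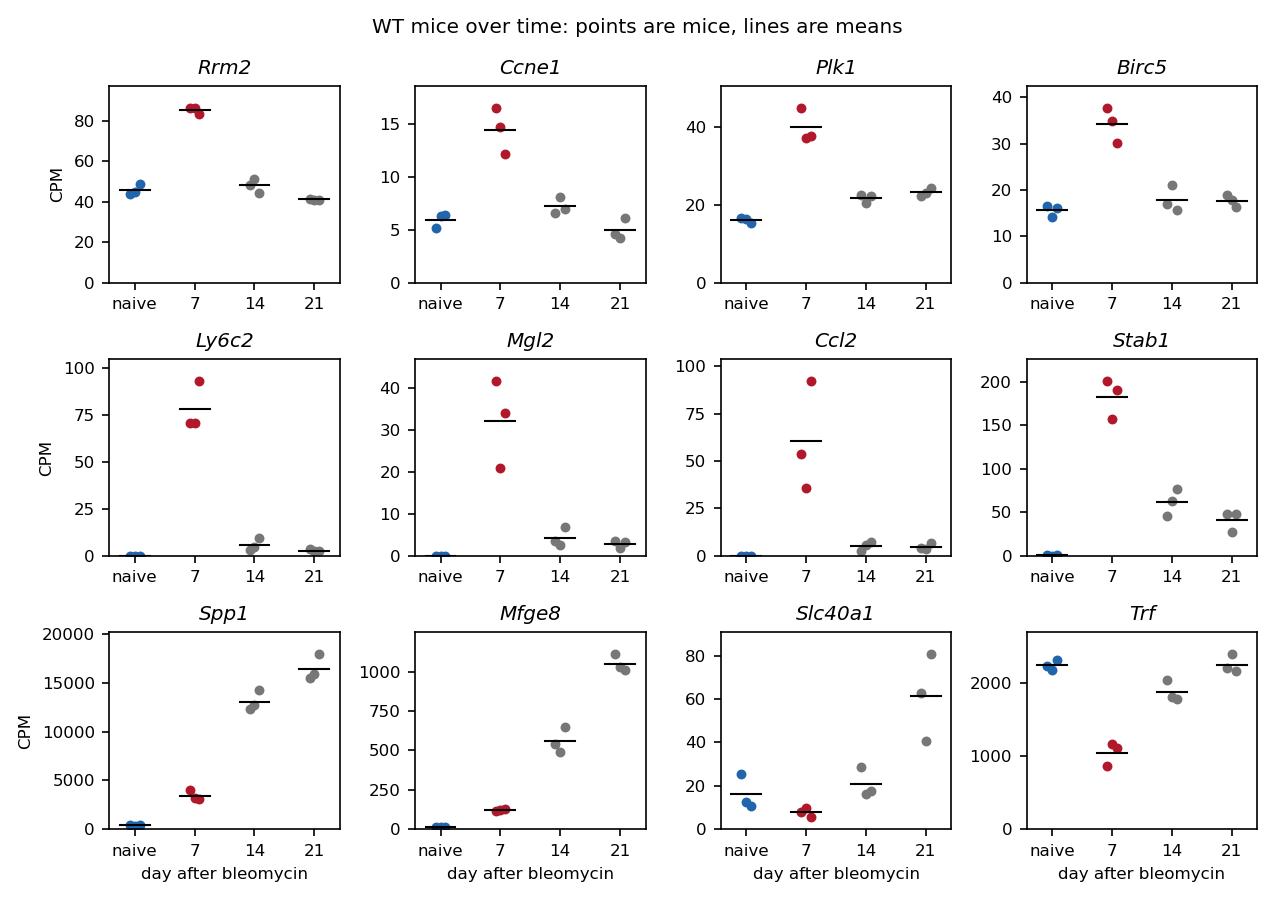
Each panel is a gene in WT mice, with the time (naive, then days 7, 14 and 21 after bleomycin) on the x axis and CPM on the y axis; points are mice and short lines group means. Rrm2, Ccne1, Plk1, Birc5, Ly6c2, Mgl2, Ccl2 and Stab1 are highest at day 7, Spp1 and Mfge8 are highest at day 21, and Slc40a1 and Trf are lowest at day 7.

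The third comparison asked whether the day 7 response depended on Siglec-F, by testing the response of WT mice minus that of KO mice. The KO mice gave a response of similar extent on their own: 19.7% of tested genes (2485) were higher and 14.4% (1823) lower in KO day 7 than in KO naive mice. The difference between the responses was called for 1 gene of 12634 (0.00792%), and 776 had an unadjusted p under 0.05; DESeq2 called 39. The gene was Luc7l, a splicing factor of the U1 particle. It had 33.3, 34.1 and 24.5 CPM in the WT day 7 mice, against 36.8, 25.8 and 33.5 CPM in the WT naive mice. In the KO mice it averaged 35.8 ± 4.32 CPM at day 7, against 11.3 ± 1.41 CPM in naive mice (SD, n = 3 each). The response was lower in WT by 1.72 on the log2 scale (-1.72, SE 0.25, edgeR adjusted p 0.0091), and the group that stood apart was the KO naive mice. The call was lost without KO naive mouse 1 (adjusted p 0.063) or 2 (0.054). No member of the cholesterol synthesis list was called in this test, although 24 rose in WT and 13 in KO mice, with medians of 0.89 and 0.39. With 3 mice a group, a difference that was not called does not show that the responses were alike.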

How the data were processed

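RNA of airspace macrophages from 24 male mice (8 groups of 3) was sequenced as mRNA libraries. The deposited table holds expected counts per gene made by the authors, about 3% of them not whole, with 1 column per mouse; GEO lists 2 runs per mouse, and whether a column sums both is not stated. Per the submitters' processing notes, the build was mm10 and bcl2fastq, DESeq2 1.42.0 and limma 3.58.1 were used, in roles not given. No source used here gives the aligner, counter or strand setting, so overlapping antisense genes cannot be separated. The table's other 24 columns were not used.

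Counts were rounded, filtered with edgeR 4.0.16 in R 4.3.3 (filterByExpr, minimum count 10, minimum total 15; 12634 of 24411 genes kept), scaled by TMM and fitted over all 24 mice with a mean for each of 8 groups (quasi-likelihood test, Benjamini-Hochberg adjustment, called under 0.05; biological coefficient of variation 0.21, 16 residual degrees of freedom). The fitting step was run on counts simulated for the WT day 7 and naive mice alone, with the same spread for every gene. That setting is simpler than the fit over 8 groups and does not test it. The p-values measure the spread between these mice. Replicate libraries differed by far more than sampling noise (chi-square per degree of freedom 50.23 to 215.5). Folds against a group without counts use a floor of 3 counts over the group, and ratios with 1 to 3 counts carry exact 95% counting intervals; both cover counting error only. Depth was 27075102 to 47457085 counts in the WT day 7 and naive mice, so 1 count is about 0.02 to 0.04 CPM.

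Same-numbered WT day 7 and naive mice deviated together (r 0.598, 0.433 and 0.183 for numbers 1, 2 and 3), all above the 0.1 set for pairing. The numbers were therefore treated as pairing in an alternative fit, while the main fit has no block. The labels do not say what the numbers mark. Some pairs of unlike number also deviated together (day 7 mouse 2 with naive 3, r 0.382, and day 7 mouse 3 with naive 2, r 0.228). Same-numbered mice of other groups gave mixed values. For WT naive with KO naive mice r was -0.19, -0.0189 and -0.103. For WT day 7 with KO day 7 mice it was 0.379, 0.129 and 0.0758. A fit with the number as a block is given where it changes a call or moves a count by over 1.5 times.

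The text names the 12 highest and 12 lowest fold changes with at least 10 CPM and no overlap, the 8 largest gains and losses in CPM, up to 4 members of each of 46 lists with the smallest p, up to 2 that moved against the rest, the most abundant member not called, and the 6 highest and lowest of the other comparisons; some genes this rule selects are not reported here, and any other gene is marked as picked once its values were known, or is a member of a count. The largest fold changes, gains and losses were taken among called genes with a standard symbol, which leaves out Rn45s. The members and lists were chosen with earlier results of these data known. Promoters came from RefSeq (GRCm38.p6), with 150 bases shown and 250 searched. Alternatives were RLE scaling, DESeq2, limma-voom, no filter, a filter of 1 CPM in 3 mice, the compared groups alone, the block, thinned counts, Rn45s left out, a test against 1.5-fold and each mouse left out. Marker sums without macrophage-expressed members, and list counts against the later days under these alternatives, were chosen after seeing the data.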

Additional observations from a re-analysis of the deposited data

Results flagged for a closer look

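The day 7 response of Luc7l differed between genotypes by a log2 value of -1.72 (WT response minus KO response, SE 0.25, edgeR adjusted p 0.0091), the one difference between groups that passed the test of the difference itself. It no longer passed without KO naive mouse 1 (adjusted p 0.063) or 2 (0.054). Its level was similar in the WT day 7 mice (30.7 ± 5.31 CPM), the WT naive mice (32 ± 5.66 CPM) and the KO day 7 mice (35.8 ± 4.32 CPM), and lower in the KO naive mice (11.3 ± 1.41 CPM; SD, n = 3 each). Groups of 3 mice are too small for a test of single outlying mice.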

How the results depend on the processing

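The 4481 genes called in WT day 7 against WT naive mice came to 3086 (compared groups alone) to 5023 (replicate block, which treats the mouse numbers as pairing) under the other fits: RLE scaling 4461, DESeq2 4774, limma-voom 4410, no filter 4115, a filter of 1 CPM 4305, thinned counts 4372 and Rn45s left out 4484. No gene called in both the given fit and one of these had the opposite sign, and no scaling moved the median log2 fold change by more than 0.016. Leaving out single mice gave 3646 to 4296 genes, 2082 to 2472 higher and 1553 to 1827 lower. Against a 1.5-fold change 1583 were called, 1130 higher and 453 lower, since the test asks for a larger change. Against the mean of days 14 and 21, single mice left out gave 1047 (without WT day 7 mouse 3) to 1739 genes, 605 to 977 higher and 442 to 762 lower; the block gave 1901, and the 1.5-fold test 108 (81 higher, 27 lower). The count of 1 gene with a different response in WT and KO mice was 2 with RLE scaling, 39 with DESeq2, 3 with limma-voom, no filter, the compared groups alone or thinned counts, 4 with the 1 CPM filter, 6 with the block, 0 against 1.5-fold and 0 (without KO naive mouse 1 or 2) to 3 with a mouse left out; the cause was not tested. Of 255 named genes that the block fit tested, it lost no call against naive mice and added 12. Beside these and the counts given with their lists, called values of low genes moved by over 1.5-fold with a naive mouse left out: Mgl2 had a log2 fold change of 11.31 (10.64 to 13.18), Ccl7 10.04 (9.26 to 13.18), Pdgfa 7.44 (10.51 without naive mouse 3), Gas6 5.21 (5.81 without naive mouse 3), Tmem119 8.70 (9.61 without naive mouse 2) and Il7r 7.17 (8.23 without naive mouse 1). With 3 mice a group, genes under about 1 CPM rest on few counts, and differences not called may still exist.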
